A study of Homo sapiens with 15 samples.

Results

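The genes described here are the 36 nuclear NDUF genes that encode subunits of mitochondrial complex I and the 13 protein genes of the mitochondrial genome, which were found by symbol among the 58219 genes of the count table. All 49 were in the table, each under 1 Ensembl identifier, and all 49 passed the filter on low counts that left 17599 genes to test. RNA was sequenced from BEAS-2B, an immortalised human bronchial epithelial cell line grown in serum-free medium, after exposure to PM2.5, fine particulate matter that had been collected on filters in Beijing and extracted in water. Cells received vehicle control (Control_24h), a low concentration of 1 µg/cm2 (PM_24h_1dose) or a high concentration of 30 µg/cm2 (PM_24h_30dose) for 24 h. In a separate protocol, cells plated at a lower density were washed and given vehicle (Control_7d) or 1 µg/cm2 (PM_7d_1dose) every day. The labels give 7 days of this treatment, whereas the study's methods describe fewer daily doses with collection on day 7. Each of the 5 conditions has 3 libraries, from experiments numbered 1 to 3 within each protocol. The labels name no genetic change in any group.

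Complex I (NADH:ubiquinone oxidoreductase) takes electrons from NADH into the respiratory chain and pumps protons across the inner mitochondrial membrane. Its subunits come from both genomes: the MT-ND proteins form the membrane arm together with nuclear accessory subunits, and the nuclear core subunits carry the flavin and the iron-sulphur clusters of the matrix arm. The other proteins of the mitochondrial genome belong to complex III (MT-CYB, cytochrome b), complex IV (MT-CO1, MT-CO2 and MT-CO3, the catalytic core of cytochrome c oxidase) and complex V (MT-ATP6 and MT-ATP8, of the ATP synthase). Mitochondrial genes are transcribed as long precursors of each strand that are cut into separate mRNAs, so their final levels also depend on processing and decay. Nuclear subunit genes are each transcribed from their own promoter.

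The overlaps of reading frames in the mitochondrial genome are shown because reads that fall there cannot be given to a single gene, which touches MT-ATP8 and MT-ATP6 below. In each sequence the shared bases are in capitals, on the + strand of GRCh38, first at chrM:8515-8584 with a shared stretch of 46 bases and then at chrM:10748-10778 with a shared stretch of 7 bases.
MT-ATP8 and MT-ATP6: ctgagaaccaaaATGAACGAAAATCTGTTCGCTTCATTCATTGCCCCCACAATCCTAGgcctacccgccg
MT-ND4L and MT-ND4: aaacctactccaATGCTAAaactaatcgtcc

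Levels of the members are given as CPM, counts scaled to the size of the library, and per kilobase of the deposited exon length where genes are compared. In the 24 h controls the 13 mitochondrial genes ranged from 937 CPM per kb for MT-ND1, a membrane subunit of complex I, to 7491 CPM per kb for MT-CO3, with a median of 2082. The 36 nuclear genes ranged from 0.402 CPM per kb for NDUFA7 to 390 CPM per kb for NDUFS5, both accessory subunits, with a median of 31.96, so every mitochondrial gene lay above every nuclear one. From the top, the order began with MT-CO3 (7491 ± 1766, SD, n = 3), MT-CO2 (6954 ± 1880), MT-CO1 (4722 ± 491) and MT-ND4 (4300 ± 845). Next came MT-ATP6 (3175 ± 823) and MT-ATP8 (2935 ± 353), and after them MT-CYB (2082 ± 662), MT-ND4L (1840 ± 342), MT-ND3 (1818 ± 407) and MT-ND2 (1654 ± 209). MT-ND6, the gene read from the other strand, stood at 1432 ± 534 CPM per kb, followed by MT-ND5 (1039 ± 140) and MT-ND1 (937 ± 132). No neighbours in this order differed beyond their SDs, whereas the next gene, NDUFS5 at 390 ± 104 CPM per kb, lay below the range of MT-ND1.

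**Figure D1:**
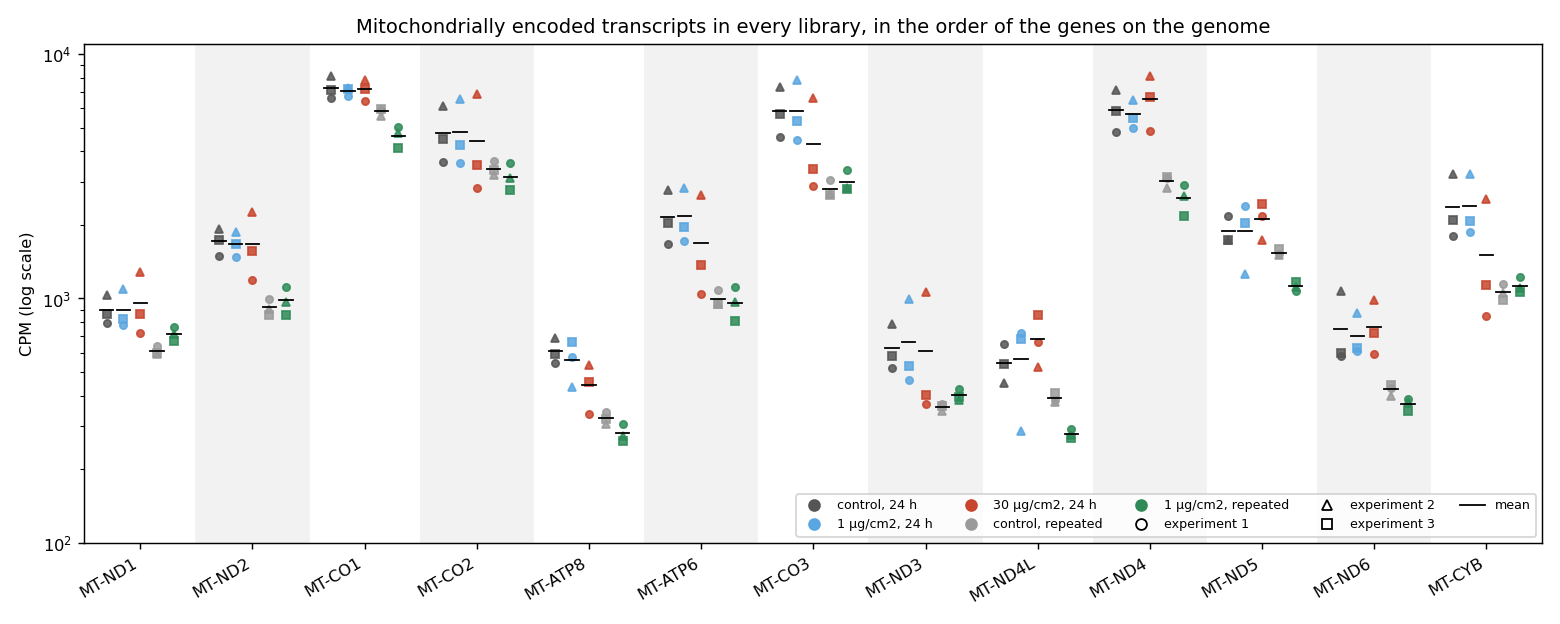
CPM of the 13 mitochondrial genes in all 15 libraries on a log axis, in genome order, with colours for the 5 conditions, marker shapes for the experiment and a bar for the mean of 3 libraries. MT-CYB sits at 850 and 1139 CPM in experiments 1 and 3 at 30 µg/cm2, below all 24 h controls, and the grey and green points of the repeated protocol lie lowest for most genes.

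Several nuclear members share exon bases with other genes. NDUFA7 had 279 counts over all libraries and shares 456 exon bases with an overlapping gene on its strand, and NDUFV2, a core subunit of the NADH-oxidising module, had 1129 counts and shares 771. In all 12 nuclear members share 59 to 771 exon bases with a gene on their strand, among them NDUFS3 (721, with PTPMT1), NDUFB8 (675), NDUFA9 (656 and 606), NDUFA11 (467), NDUFA13 (437), NDUFC2 (431), NDUFS1 (391) and NDUFC1 (360, with MGARP), so their levels are uncertain. Members also share exon bases with genes on the opposite strand, and whether counting used the strand was not given. Among these, NDUFA1 shares 341 with RNF113A, NDUFB3 218 with HYCC2, and NDUFA2 124 with TMCO6 and 70 with IK. NDUFB2 shares 1239 with BRAF and NDUFA7 shares 89 with RPS28. Levels of such members are uncertain as well. Of the mitochondrial genes, MT-CO1 had 50.6% of its 50-base windows also elsewhere in the genome, MT-ATP6 46.7% and MT-ND2 43.6%, where reads could be shared with nuclear copies.

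The libraries held 21460981 to 34724765 counts, of which the 37 genes of the mitochondrial genome took 2.37% to 4.40%. Keratin genes and CDH1 were present in all libraries (KRT5, a basal-cell keratin, at 110 to 1109 CPM; CDH1, E-cadherin, at 31.2 to 228 CPM), and PTPRC, PECAM1 and CDH5, which define leukocytes and endothelium, had at most 2, 6 and 2 counts. CD14, a monocyte marker, was at 2.3 to 22 CPM, and the fibroblast genes COL1A1 and DCN were at 22.2 to 54.1 and 4.21 to 8.82 CPM. Experiment 2 of the 24 h protocol stood apart from the others before any exposure was considered. Its 3 libraries had the highest summed levels of the series, with the nuclear genes summing to 3455 to 4384 CPM and the mitochondrial genes to 41047 to 43117 CPM. In experiments 1 and 3 these sums were 1969 to 2824 and 24944 to 33964 CPM. The counts of called members at 24 h are therefore given with and without experiment 2.

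At 30 µg/cm2 for 24 h the largest change among the mitochondrial genes with the replicate block, a term for the experiment number that compares libraries within an experiment, was in MT-CYB, followed by genes of complexes IV and V. MT-CYB (chrM:14747-15887, + strand) stood at 1798, 3231 and 2099 CPM in control experiments 1, 2 and 3 and at 850, 2549 and 1139 CPM at 30 µg/cm2. Within each experiment the exposed library was lower, by 1.08, 0.34 and 0.88 on the log2 scale, although the value of exposed experiment 2 was above the controls of experiments 1 and 3. When group means alone were compared by edgeR's quasi-likelihood test with Benjamini-Hochberg adjustment over all genes, this log fold-change of -0.65 was not called (adjusted p = 0.276). With the block, MT-CYB fell by 0.76 on the log2 scale (SE 0.14, edgeR adjusted p = 0.00157). Without the block, leaving out PM_24h_30dose replicate 2 moved its value to -1.27 and leaving out Control_24h replicate 2 to -0.37.

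MT-CO3, a core subunit of cytochrome c oxidase (chrM:9207-9990), had 4584, 7336 and 5700 CPM in the controls and 2895, 6622 and 3385 CPM at 30 µg/cm2, and fell by 0.52 with the block (SE 0.13, edgeR adjusted p = 0.0100). Its neighbour MT-ATP6 (chrM:8527-9207), which forms part of the proton path of the ATP synthase, had 1669, 2772 and 2046 CPM against 1044, 2640 and 1367 CPM and fell by 0.44 (SE 0.13, edgeR adjusted p = 0.0240). MT-ATP8 (chrM:8366-8572), a small membrane subunit of that enzyme, went from 543, 687 and 593 CPM to 338, 532 and 454 CPM and fell by 0.47 (SE 0.16, edgeR adjusted p = 0.0408). With 1 library left out of the fit without the block, MT-CO3 ranged from -0.91 to -0.25, MT-ATP6 from -0.85 to -0.13 and MT-ATP8 from -0.63 to -0.32, the lowest without PM_24h_30dose replicate 2 and the highest without its replicate 1. All 3 genes were lower in each experiment. Of the 13 mitochondrial genes MT-ATP8 alone had all exposed libraries below all its controls, against 11.1% of all genes tested that lay lower without overlap. No call was made for any of these genes without the block, where the edgeR adjusted p of MT-ATP8 was 0.128.

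Counted over both genomes, the fit without the block called 0 of 49 members at 30 µg/cm2, where 10.1% of all genes were called. At an unadjusted p under 0.05 it had 2 members, NDUFA5 and MT-ATP8, against 4161 of 17599 genes. DESeq2 called 1 nuclear and 0 mitochondrial members, against 14.7% of all genes. The block called 4 of 13 mitochondrial genes (30.8%) and 6 of 36 nuclear genes (16.7%), each of them lower. Over all genes it called 29.6%, and 14.4% as lower, so the nuclear share was close to the background. With the study's threshold of an absolute log fold-change of 0.6 added, NDUFA2 and MT-CYB remained.

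The 7 mitochondrial subunits of complex I gave no call at 30 µg/cm2. Their median log2 fold-change with the block was 0.067, against -0.45 for the 6 mitochondrial subunits of complexes III to V, of which 4 fell. MT-ND4, for example, had 4806, 7129 and 5840 CPM in the controls and 4835, 8163 and 6682 CPM after exposure. MT-CO1 had 6599, 8097 and 7148 CPM against 6436, 7867 and 7189 CPM. The ratio of MT-CYB to MT-CO1, chosen after the values were seen and given without a test, was 0.272, 0.399 and 0.294 in the controls, 0.276, 0.444 and 0.288 at 1 µg/cm2, and 0.132, 0.324 and 0.158 at 30 µg/cm2.

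**Figure D2:**
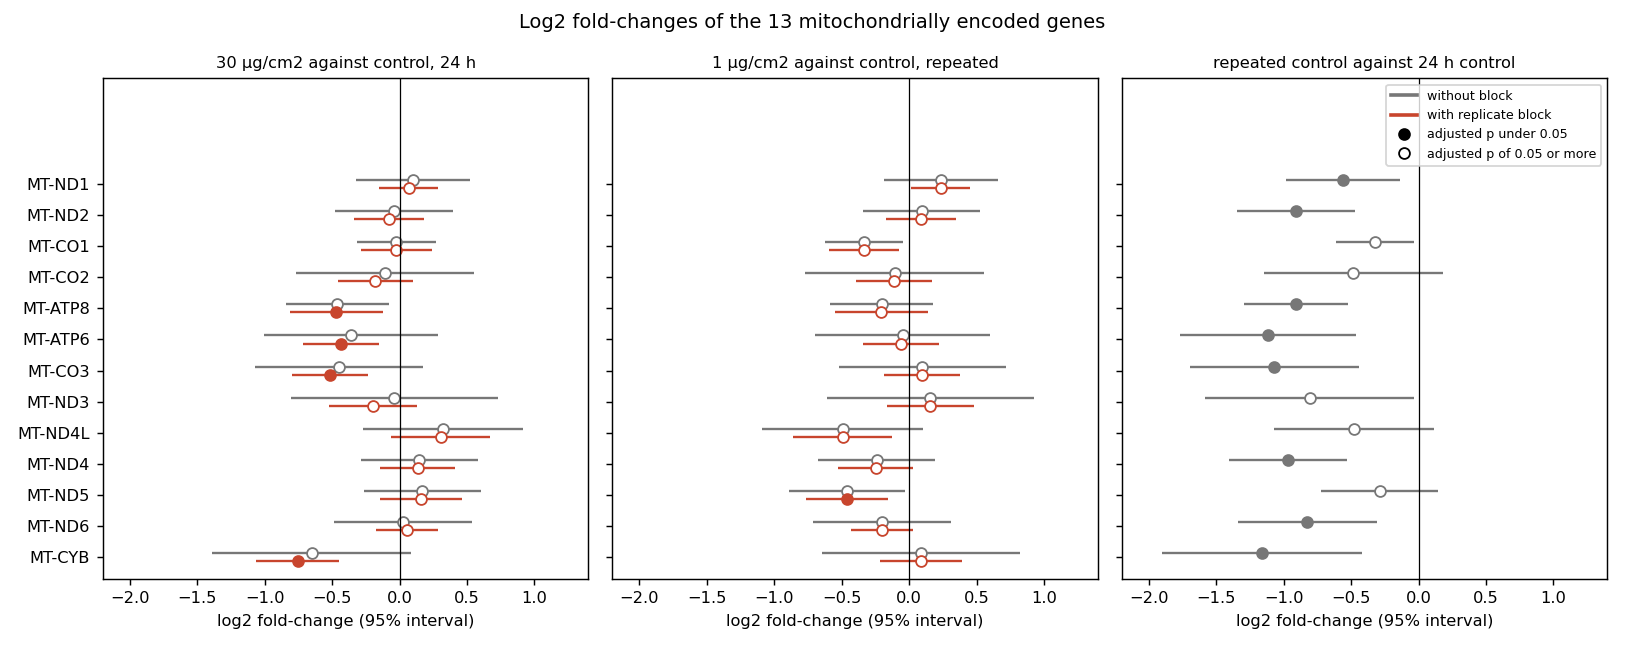
Log2 fold-changes with 95% intervals of the 13 mitochondrial genes in 3 comparisons, without (grey) and with (red) the replicate block, with filled points for an adjusted p under 0.05. At 30 µg/cm2 the 4 filled points belong to MT-ATP8, MT-ATP6, MT-CO3 and MT-CYB and only the fit with the block fills them, in the repeated exposure only MT-ND5 is filled, and between the controls 8 genes are filled, all below 0.

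The 6 nuclear genes that fell with the block were accessory subunits, which surround the catalytic core and serve its assembly and stability and which make up 30 of the 36 nuclear members. NDUFA2, an accessory subunit of the matrix arm (chr5:140638740-140647785, - strand), had 57.9, 104 and 67.4 CPM in the controls and 33.2, 97.8 and 35.01 CPM at 30 µg/cm2. Exposed libraries of experiments 1 and 3 lay below all controls and that of experiment 2 lay among them. With the block NDUFA2 fell by 0.62 on the log2 scale (SE 0.13, edgeR adjusted p = 0.00401). With any 1 library left out of the fit without the block, its value ranged from -1.17 (without PM_24h_30dose replicate 2) to -0.18 (without Control_24h replicate 2). NDUFA5, also of the matrix arm (chr7:123536997-123558255), had 77.0, 86.3 and 91.2 CPM against 53.9, 77.2 and 57.3 CPM and fell by 0.44 (SE 0.10, edgeR adjusted p = 0.00547).

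NDUFA1, a small membrane subunit whose gene lies on chromosome X (chrX:119871487-119876662, + strand), had 73.9, 146 and 84.6 CPM in the controls and 48.2, 137 and 46.5 CPM at 30 µg/cm2. It fell by 0.52 with the block (SE 0.13, edgeR adjusted p = 0.00776), and leaving out the same libraries without the block gave -1.11 and -0.043. Among the NDUFB genes, which encode subunits of the membrane arm, NDUFB5 (-0.34, edgeR adjusted p = 0.00914), NDUFB1 (-0.46, adjusted p = 0.0156) and NDUFB3 (-0.47, adjusted p = 0.0374) fell as well. Without the block and without Control_24h replicate 2, NDUFB1 stood at 0.0010. The 6 core subunits NDUFS1, NDUFS3, NDUFS7, NDUFS8, NDUFV1 and NDUFV2 gave no call, with a median log2 fold-change of -0.18 with the block, beside -0.18 over all 36 nuclear members. Without experiment 2 of the 24 h protocol, 4 of these 6 were lower, and 5 with the block added, where 20.5% and 24.7% of all genes were lower. NDUFA7 went the other way, from 0.471 to 0.632 CPM in the controls to 0.798 to 0.910 CPM after exposure, the only member with all exposed libraries above its controls (11.7% of all genes did so). Its log2 difference of 0.55 was not called without the block (edgeR adjusted p = 0.287).

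The experiments disagreed in the direction of the nuclear genes. Comparing the exposed with the control library of the same number, 32 of 36 nuclear members were lower in experiment 1 and 33 in experiment 3, with median log2 differences of -0.27 and -0.49, whereas 6 were lower in experiment 2, with a median of 0.21. In all, 27 nuclear members were lower in experiments 1 and 3 and higher in experiment 2. The mitochondrial genes split less by experiment, with 9, 7 and 7 of 13 lower and 4 lower in all 3. Without the 3 libraries of experiment 2, the fit of group means called 25 of 36 nuclear members (69.4%) and 6 of 13 mitochondrial members as lower, where 20.5% of all genes were lower. NDUFA2 then had a log2 fold-change of -0.89 (edgeR adjusted p = 2.06e-06) and MT-CYB of -0.99 (edgeR adjusted p = 1.56e-05). MT-ND3 and MT-CO2 joined the mitochondrial genes that fell, and MT-ND4L, a small membrane subunit of complex I, rose. The part of experiment 2 in the difference between the 2 fits was not tested beyond leaving it out.

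**Figure D3:**
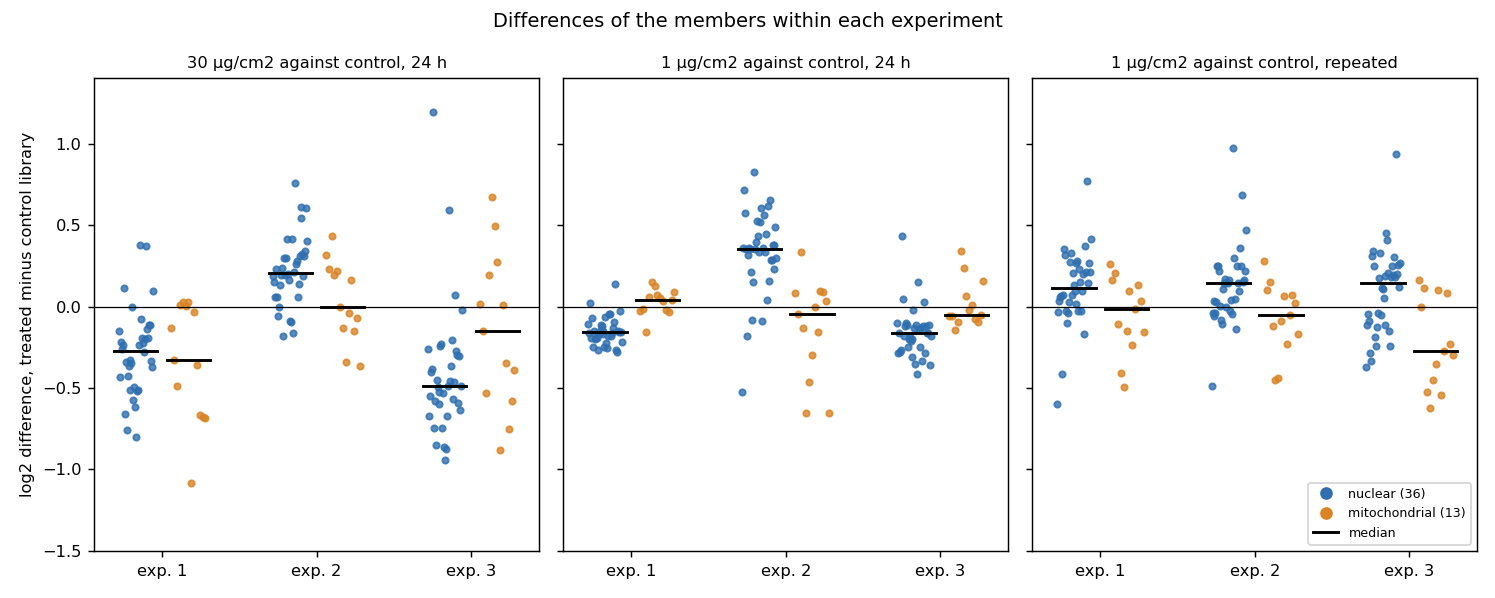
Log2 difference between the exposed and the control library of the same experiment number for each member, by comparison, with nuclear and mitochondrial genes coloured apart. At 1 and 30 µg/cm2 for 24 h most nuclear points lie below 0 in experiments 1 and 3 and above 0 in experiment 2, while in the repeated protocol the nuclear medians are 0.11 to 0.15 in the 3 experiments.

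Keratins and adhesion genes moved in the same libraries. Of the 7 bronchial epithelial markers, 5 fell at 30 µg/cm2 without the block, with a median log2 fold-change of -0.79 over all 7. Their summed level was 3649 to 4164 CPM in Control_24h, 3212 to 4058 CPM at 1 µg/cm2 and 1559 to 2622 CPM at 30 µg/cm2. In the repeated protocol it was 2948 to 3515 CPM in the controls and 1934 to 2208 CPM after exposure. In bulk RNA, fewer cells of a type and less RNA of a gene per cell cannot be told apart, and the part of this shift in the members' values was not tested.

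At 1 µg/cm2 for 24 h no member was called in either fit, where 0.0625% of all genes were called without the block and 0.472% with it. At an unadjusted p under 0.05 the fit without the block had 0 members, against 534 of 17599 genes. DESeq2 also called 0, against 0.244% of all genes. The nuclear genes had a median log2 fold-change of 0.070 and 27 of 36 above 0 without the block, and -0.0029 with 16 above 0 with it, so their direction depended on the fit. By experiment, 34, 4 and 32 of 36 nuclear genes were lower, with median differences of -0.16, 0.36 and -0.16. The mitochondrial genes had a median of 0.0057. MT-CYB stood at 1863, 3223 and 2070 CPM, next to its controls in every experiment. Without experiment 2, the fit of group means again called 0 members, where 5.45% of all genes were called. Of the nuclear genes 34 of 36 were below 0, with a median of -0.16. At an unadjusted p under 0.05 there were 8 of them, against 3548 of 17950 genes. The median of the mitochondrial genes was then -0.00014.

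Setting 30 directly against 1 µg/cm2 gave 0 of 49 calls without the block (0 at an unadjusted p under 0.05, and 0 by DESeq2), where 10.1% of all genes were called. With the block 7 nuclear and 3 mitochondrial genes were lower at 30 µg/cm2, against 31.4% of all genes called and 14.9% called as lower. The 3 mitochondrial genes were MT-CYB (-0.77, edgeR adjusted p = 0.00139), MT-CO3 (-0.50, adjusted p = 0.0114) and MT-ATP6 (-0.44, adjusted p = 0.0211). Of the nuclear genes NDUFA2 had the largest change (-0.71, edgeR adjusted p = 0.00148), followed by NDUFA1 (-0.54), NDUFB1 (-0.53), NDUFB7 (-0.47), NDUFB3 (-0.46), NDUFS7 (-0.44) and NDUFA5 (-0.29). NDUFS7, a core subunit that carries an iron-sulphur cluster, had 32.2, 81.0 and 32.7 CPM at 1 µg/cm2 and 27.2, 51.3 and 25 CPM at 30 µg/cm2, with its highest value in experiment 2 at both concentrations. This comparison shares the libraries at 30 µg/cm2 with the comparison against control, so the calls they have in common are not separate evidence. In the fit without the block, leaving out PM_24h_1dose replicate 2 alone turned NDUFA1, NDUFB1, NDUFB7 and NDUFS7 to 0.035 to 0.13 and brought NDUFA2 to -0.095. Without all of experiment 2, 14 nuclear and 5 mitochondrial members were lower at 30 µg/cm2, where 34.6% of all genes were called and 18.3% as lower.

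After repeated daily exposure to 1 µg/cm2, no member was called without the block, and with it NDUFC2 and NDUFV3 rose and NDUFS1 and MT-ND5 fell. NDUFC2, an accessory subunit of the membrane arm (chr11:78068304-78080219, - strand), stood at 19.1, 17.6 and 16.2 CPM in Control_7d and at 32.6, 28.3 and 30.9 CPM in PM_7d_1dose. All exposed libraries were above all controls. With the block NDUFC2 rose by 0.80 on the log2 scale (SE 0.13, edgeR adjusted p = 0.00515), and without it the change was not called (edgeR adjusted p = 0.370). NDUFV3, an accessory subunit of the NADH-oxidising module (chr21:42879644-42913304), had 39.0, 38.6 and 41.0 CPM against 51.9, 53.6 and 49.4 CPM and rose by 0.38 (SE 0.10, edgeR adjusted p = 0.0323).

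NDUFS1, the core subunit that holds several iron-sulphur clusters (chr2:206114817-206159603, - strand), had 39.7, 38.6 and 43.98 CPM in the controls and 26.2, 27.6 and 34.0 CPM after repeated exposure. Its libraries did not overlap either, and with the block it fell by 0.48 (SE 0.13, edgeR adjusted p = 0.0347). MT-ND5, a proton-pumping membrane subunit (chrM:12337-14148), had 1516, 1513 and 1593 CPM against 1076, 1118 and 1166 CPM and fell by 0.46 with the block (SE 0.14, edgeR adjusted p = 0.0497). MT-ND4L stood at 386, 378 and 412 CPM in the controls and at 291, 277 and 268 CPM after exposure. Its groups did not overlap, yet its log2 difference of -0.49 was not called with the block (edgeR adjusted p = 0.0752).

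In this comparison 0 of 49 members were called without the block, where 0.25% of all genes were. At an unadjusted p under 0.05 there were 4 members (NDUFC2, NDUFV3, MT-ND5 and MT-CO1), against 2102 of 17599 genes. DESeq2 called 0, against 2.9% of all genes. With the block 3 nuclear genes and 1 mitochondrial gene were called, against 12.2% of all genes. Groups without overlap were common: 18 of 36 nuclear members were higher in all exposed libraries (21.3% of all genes) and 3 were lower in all (21.6% of all genes). Of the 13 mitochondrial genes 2 were higher and 4 lower without overlap. The median log2 fold-change was 0.14 for the nuclear and -0.11 for the mitochondrial genes, beside 0.0085 for all genes.

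The fit of all 15 libraries shares 1 estimate of the spread between the protocols. Fitted on their own 6 libraries without the block, 13 nuclear and 6 mitochondrial members were called, where 28.2% of all genes were. Of the nuclear genes 12 rose and 1, NDUFS1, fell. The largest rises after NDUFC2 (0.80, edgeR adjusted p = 0.000359) were in NDUFV3 (0.39), NDUFAB1, the mitochondrial acyl carrier protein (0.35), and NDUFB2 (0.32). Of the mitochondrial genes MT-ND4L (-0.49), MT-ND5 (-0.45), MT-CO1 (-0.33) and MT-ND6 (-0.19) fell, and MT-ND1 (0.24) and MT-ND3 (0.16) rose.

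The response to the repeated exposure was then set against the response to the single exposure at the same concentration. No member was called in either fit, where 0.0% of all genes were called without the block and 1.18% with it. At an unadjusted p under 0.05 there were 0 members without and 4 with the block, against 1245 and 3596 of 17599 genes. DESeq2 called 0, against 0.46% of all genes. Without experiment 2 of the 24 h protocol, 9 nuclear and 2 mitochondrial members differed, where 20.4% of all genes did. Among them NDUFC2 (0.94, edgeR adjusted p = 0.00249), NDUFAB1 (0.62) and NDUFV3 (0.58) were higher in the repeated response, and MT-ND4L (-0.74) and MT-ND5 (-0.64) were lower.

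The widest difference in the mitochondrial genes lay between the controls of the 2 protocols, without any particles. Summed over the 13 genes, Control_24h had 35412 ± 6415 CPM and Control_7d 21679 ± 947 CPM (SD, n = 3), and the 36 nuclear genes summed to 2905 ± 513 and 2255 ± 66.0 CPM. The ratio of the mitochondrial to the nuclear sum was 12.2 ± 0.134 in Control_24h, 9.61 ± 0.313 in Control_7d and 8.15 ± 0.691 in PM_7d_1dose. In the exposed 24 h groups it varied more, at 12.2 ± 2.48 in PM_24h_1dose and 12.9 ± 2.12 in PM_24h_30dose, and PM_24h_1dose experiment 2 (9.36) lay near the Control_7d mean. All 13 mitochondrial genes had negative log2 fold-changes, with a median of -0.82, and 12 were lower in all Control_7d libraries without overlap, where 24.7% of all genes were. The exception was MT-CO2, at 3630, 6158 and 4481 CPM in Control_24h and 3639, 3210 and 3347 CPM in Control_7d.

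**Figure D4:**
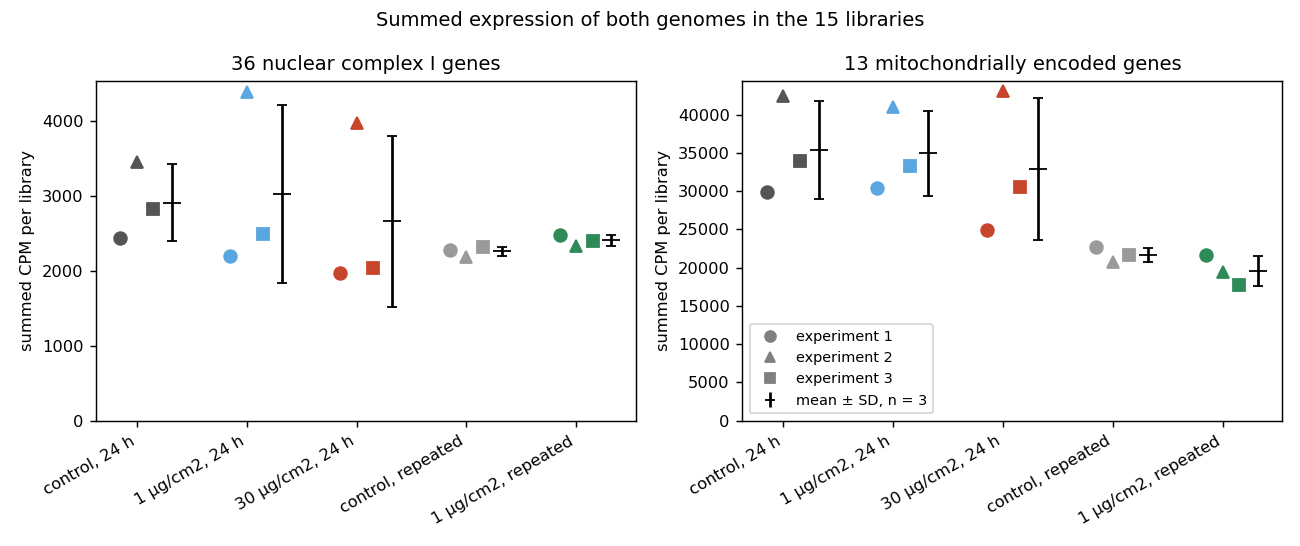
Summed CPM per library of the 36 nuclear and the 13 mitochondrial members by condition, with marker shapes for the experiment and the mean ± SD of 3 libraries beside them. Mitochondrial sums are 20757 to 22648 CPM in Control_7d and 29844 to 42427 CPM in Control_24h, without overlap.

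Of the mitochondrial genes 8 of 13 (61.5%) were lower in Control_7d, where 28.9% of all genes were called and 14.6% as lower. MT-ND4, a proton-pumping subunit of complex I (chrM:10760-12137), went from 4806, 7129 and 5840 CPM in Control_24h to 3126, 2841 and 3130 CPM in Control_7d, and fell by 0.97 on the log2 scale (SE 0.20, edgeR adjusted p = 0.00321). MT-ND2, a related membrane subunit (chrM:4470-5511), had 1498, 1931 and 1742 CPM against 997, 905 and 856 CPM and fell by 0.91 (SE 0.20, edgeR adjusted p = 0.00475). In both genes every Control_7d library lay below every Control_24h library.

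MT-CYB fell by 1.16 (edgeR adjusted p = 0.0223), MT-ATP6 by 1.12 (adjusted p = 0.0139), MT-CO3 by 1.07 (adjusted p = 0.0141), MT-ATP8 by 0.91 (adjusted p = 0.00208), MT-ND6 by 0.82 (adjusted p = 0.0195) and MT-ND1 by 0.56 (adjusted p = 0.0469). The 3 genes MT-ND2, MT-ND4 and MT-ATP8 kept their call when any 1 of the 15 libraries was left out. The number of mitochondrial genes called was 5 without Control_24h replicate 2 or Control_7d replicate 1, where 28.1% and 20.1% of all genes were called. It was 3 without Control_7d replicate 2 or replicate 3, where 19.0% and 19.2% of all genes were called. Without all of experiment 2 of the 24 h protocol 12 mitochondrial genes were lower, where 26.9% of all genes were, and MT-CYB had a log2 fold-change of -0.89 (edgeR adjusted p = 5.8e-06).

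Of the 36 nuclear genes 6 (16.7%) were lower in Control_7d, close to the 14.6% over all genes, although 33 of 36 had negative values, with a median of -0.35, and 19 were lower without overlap. NDUFC2 had 28.7, 48.97 and 37.7 CPM in Control_24h and 19.1, 17.6 and 16.2 CPM in Control_7d, and fell by 1.12 (SE 0.34, edgeR adjusted p = 0.0237). This is the member with the largest rise after repeated exposure, to 28.3 to 32.6 CPM, near the lower end of the 24 h controls. The fall and the rise of NDUFC2 use the same Control_7d libraries, so they are not separate evidence, and this holds for NDUFV3 too. NDUFB6, a membrane-arm subunit (chr9:32552999-32573184), had 78.9, 99.6 and 98.6 CPM against 52.0, 50.1 and 53.8 CPM and fell by 0.83 (edgeR adjusted p = 0.0133). NDUFB3 (-0.86), NDUFB8 (-0.70), NDUFV3 (-0.46) and NDUFA10 (-0.35) were called with edgeR adjusted p-values of 0.0443 to 0.0480.

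The nuclear calls were unstable. Their number was 3, 1 and 1 without Control_24h replicate 1, 2 or 3, 1, 0 and 1 without Control_7d replicate 1, 2 or 3, and 2 without any of the PM_7d_1dose replicates, and it was 11 without PM_24h_1dose replicate 2 and 10 without PM_24h_30dose replicate 2. The share of all genes called moved as well, from 18.9% without Control_24h replicate 3 to 35.2% without PM_24h_1dose replicate 2. The protocols differed in plating density, washing, time in culture and experiment, and these cannot be told apart here.

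**Figure D5:**
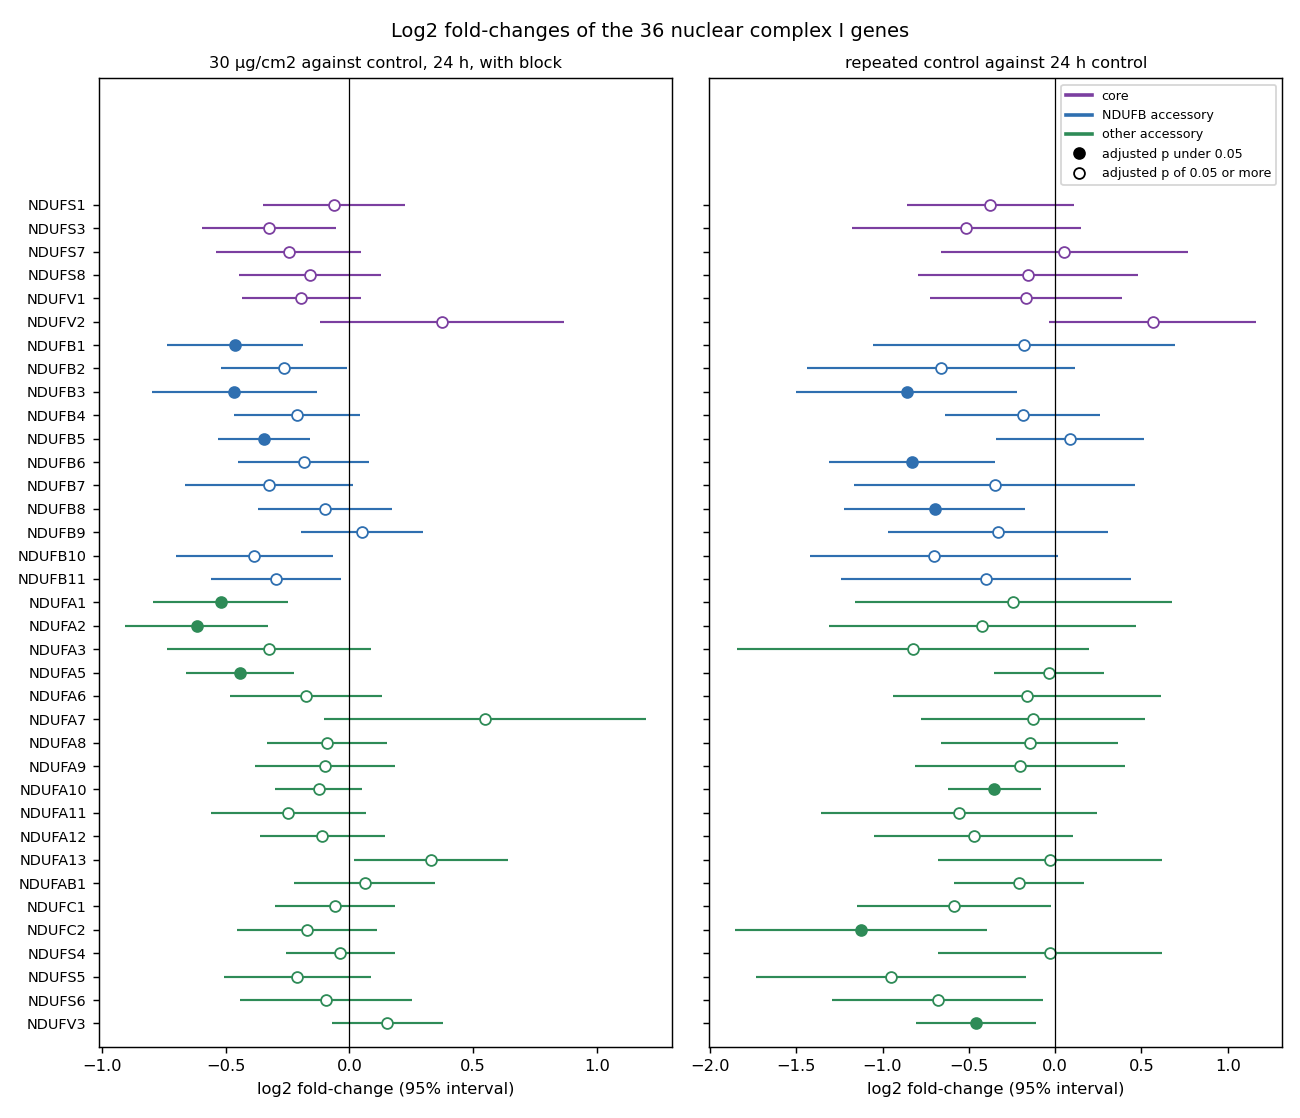
Log2 fold-changes with 95% intervals of the 36 nuclear members, coloured by role, for 30 µg/cm2 against control with the replicate block and for Control_7d against Control_24h without it, with filled points for an adjusted p under 0.05. Filled points are accessory subunits in both panels, 6 in each, and NDUFB3 is the only gene filled in both.

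Nuclear genes of the other complexes also had lower values at 30 µg/cm2. Of 39 nuclear subunits of complexes II to V, 0 were called without the block and 14 (35.9%) were lower with it, where 14.4% of all genes were, and 38 of 39 had negative values, with a median of -0.29. Without the block 3 had an unadjusted p under 0.05, against 4161 of 17599 genes, and DESeq2 called 2, against 14.7% of all genes. The 14 genes that were lower with the block included ATP5F1A, the catalytic-hexamer alpha subunit of the ATP synthase (-0.55, edgeR adjusted p = 0.00389). Another was COX7B, a small subunit of cytochrome c oxidase (-0.53, edgeR adjusted p = 0.0225). Without experiment 2, 35 of 39 were lower, where 20.5% of all genes were. In Control_7d against Control_24h 5 of 39 (12.8%) were lower, beside 14.6% of all genes, and after repeated exposure 0 were called without the block (2 at an unadjusted p under 0.05, and 1 by DESeq2) and 3 were lower with it, where 12.2% of all genes were called in either direction. The 15 assembly factors of complex I, which are not part of the finished enzyme, gave 0 calls against control at 30 µg/cm2 in both fits. Over all genes 10.1% and 29.6% were called there. At an unadjusted p under 0.05 the 15 factors had 0 and 1, against 4161 and 7185 of 17599 genes, and DESeq2 called 0. Between the controls 1 was higher and 3 were lower in Control_7d (26.7%), beside 28.9% of all genes called. Without the block 0 of the 15 were called against 1 µg/cm2 or after repeated exposure (3 at an unadjusted p under 0.05 and 1 by DESeq2 in each), and 0 for the difference of responses (2 and 0). Against 1 µg/cm2, NDUFAF1, NDUFAF2, NDUFAF3 and NDUFAF4 were higher at 30 µg/cm2 with the block (0.40 to 0.54). They made up 26.7% of the list, beside 31.4% of all genes called. TIMMDC1, an assembly factor of the membrane arm, rose after repeated exposure (53.1 ± 2.18 to 78.2 ± 4.16 CPM, 0.56 with the block, edgeR adjusted p = 0.00405), and its response differed from that at 24 h by 0.63 with the block (edgeR adjusted p = 0.0475).

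Of 23 factors of mitochondrial transcription and RNA handling, PPARGC1A, a coactivator of mitochondrial gene programmes, changed most at 30 µg/cm2. It stood at 13.8, 38.6 and 11.48 CPM in the controls and at 5.56, 7.04 and 5.89 CPM after exposure. All exposed libraries were below all controls, where 11.1% of all genes tested lay lower without overlap. The highest control value, 38.6 CPM, was that of experiment 2 and raised the control mean. The mean of PPARGC1A went from 21.3 ± 15.04 to 6.16 ± 0.778 CPM (SD, n = 3). Its log2 fold-change was -1.78 without the block (SE 0.40, edgeR adjusted p = 0.0118) and -1.63 with it. SUPV3L1, a mitochondrial RNA helicase of the decay machinery, rose by 0.47 (edgeR adjusted p = 0.0199) and MTERF3, a mitochondrial transcription and ribosome assembly factor, by 0.32 (adjusted p = 0.0478). These were the 3 of 23 factors called without the block, and with it 3 rose and 3 fell. Between the controls 3 were higher and 5 lower in Control_7d (34.8%, beside 28.9% of all genes called). PPARGC1A was higher in Control_7d (69.3 ± 8.92 CPM, 1.71, edgeR adjusted p = 0.00511) than in Control_24h, while the mitochondrial mRNAs were lower there, and it fell by 0.99 after repeated exposure with the block (edgeR adjusted p = 0.00825).

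The mitochondrial rRNAs, which a poly-A selected library samples only in part, were not called at 30 µg/cm2 or after repeated exposure without the block, with 1 of 2 at an unadjusted p under 0.05 in each and 0 by DESeq2. With the block MT-RNR1 (0.70, edgeR adjusted p = 0.000323) and MT-RNR2 (0.69, adjusted p = 0.00473) rose at 30 µg/cm2, and both fell after repeated exposure (-0.60 and -0.55). MT-RNR2 was higher in Control_7d than in Control_24h, at 4940 ± 457 against 1782 ± 718 CPM (1.47, edgeR adjusted p = 0.00379), where 8 mitochondrial mRNAs were lower.

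Promoters of the nuclear members were read from RefSeq (GRCh38.p14, 250 bases before to 50 after each start), which held 32 of the 36. Known motifs of promoters of this kind were searched by their letters on both strands, as a description. The motif of NRF1, searched as GCGCA and GCGC with any base between them, was in 6 of 32 (18.8%) against 5.78% of 35116 promoters, and AAGATGGCG, that of YY1, in 5 (15.6%) against 1.75%. The ETS motif CCGGAAG was in 5 (15.6%) against 10.3%. Each member was read at a single promoter. The 35116 were all full-length promoters, not limited to a single promoter per gene or to any type of gene. The shares therefore compare unlike sets. Of the nuclear genes that fell at 30 µg/cm2 with the block and had a promoter in the table, NDUFA1 alone held any of the 3 motifs. Its window is shown beside those of genes that did not pass that test, with the motif in capitals, which in NDUFA1 lies on the opposite strand.
NDUFA1, chrX:119871770-119871806, + strand: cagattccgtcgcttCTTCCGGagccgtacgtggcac
NDUFB7, chr19:14572069-14572105, - strand: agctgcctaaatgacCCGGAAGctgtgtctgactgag
NDUFA12, chr12:95003789-95003828, - strand: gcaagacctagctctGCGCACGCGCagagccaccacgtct
NDUFB4, chr3:120596258-120596297, + strand: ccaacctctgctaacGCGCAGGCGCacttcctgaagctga
NDUFB7, NDUFA12 and NDUFB4 were not called against control at 30 µg/cm2 with the block.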

How the data were processed

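The authors deposited 1 table of raw counts per gene, without normalization, with exon coordinates and length. Per the methods, poly-A selected single-end reads of 50 bases were aligned with STAR to GRCh38 and counted with featureCounts, while the submitters' notes name hg19. All 49 members overlap their GENCODE gene on GRCh38. Strand and counting options were not given in the sources used here. The analysis used edgeR 4.0.16 under R 4.3.3, with filterByExpr, TMM scaling and 1 quasi-likelihood model in its earlier mode, with a mean per condition, for the 15 libraries. The threshold was an adjusted p-value (Benjamini-Hochberg) of 0.05, and calls were counted also with a log2 fold-change of 0.6. The members, and the other lists, were chosen with earlier results of these data known. All members may be named, and from other lists at most the 4 largest called changes in each comparison. Replicate numbers mark the experiment, per the series record. Deviations of libraries with the same number correlated at 0.201 to 0.721 at 24 h and at 0.121 to 0.181 in the repeated protocol, and those with different numbers at -0.68 to 0.453 and -0.13 to -0.034, so the number was also fitted as a block within each protocol, while the controls of the protocols could not be blocked. SEs are the log2 fold-change over the root of F. Library totals of 21460981 to 34724765 counts set the depth. The fits were checked on simulated counts. DESeq2 1.42.0, other normalizations, filters and left-out libraries were alternatives.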

Additional observations from a re-analysis of the deposited data

How the results depend on the processing

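The replicate block, other filters, normalizations and tools, and left-out libraries were tried as alternatives, and 2 combinations with the block were added after seeing the data. Genes called in the fit with or without the block were followed under these settings, each against its result without the block. Of these values 825 kept direction and side of the threshold, 118 were called only under the other setting, 74 lost the call and 5 changed sign. Only the 14 members called between the controls were called without the block. For the rest, keeping the side of the threshold meant staying uncalled.

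With the replicate block the calls among 36 nuclear and 13 mitochondrial genes went from 0 and 0 to 6 and 4 at 30 µg/cm2, 7 and 3 for 30 against 1 µg/cm2 and 3 and 1 in the repeated protocol, the same with normalization without mitochondrial genes added. Without experiment 2 of the 24 h protocol they were 25 and 7, 14 and 5, and 8 and 4, with 9 and 2 for the difference of responses and 18 nuclear genes, in place of 6, between the controls, where 38.3%, 34.6%, 25.2%, 20.4% and 53.9% of all genes were called. Block and left-out experiment together gave 31 and 9, 19 and 7, 16 and 8, 20 and 7, and 6 nuclear genes at 1 µg/cm2, where 47.6%, 44.6%, 37.8%, 34.1% and 16.7% of all genes were called. With only the libraries compared, the calls were 13 and 6 in the repeated protocol and 15 nuclear genes between the controls, beside 28.2% and 39.2% of all genes. Library size alone gave 1 nuclear gene at 30 µg/cm2 and 2 between the controls, and DESeq2 gave 1 at 30 µg/cm2. Of all genes 10.3%, 29.6% and 14.7% were called there.

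Leaving out each library in turn gave 0 to 5 nuclear and 0 to 4 mitochondrial genes at 30 µg/cm2 and 0 to 7 and 0 to 3 against 1 µg/cm2, the highest always without PM_24h_30dose replicate 2. The fit without that library called 18.7% and 18.9% of all genes in these comparisons. Between the controls the ranges were 0 to 11 and 3 to 10, where 18.9% to 35.2% of all genes were called, and 0 to 0 for the other comparisons. NDUFB1 at 30 µg/cm2 ranged from -1.05 to 0.0010, the latter without Control_24h replicate 2. Against 1 µg/cm2, the fit without PM_24h_1dose replicate 2 turned 4 genes: NDUFS7 (-0.91 to 0.075 over the libraries left out), NDUFB1 (-1.19 to 0.035), NDUFB7 (-1.07 to 0.13) and NDUFA1 (-1.23 to 0.065). The cause of these changes was not tested.

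Between the controls, library size alone moved the median log2 fold-change of all genes from 0.017 to 0.16, and the medians of the nuclear and mitochondrial genes to -0.21 and -0.69. All genes then split into 3326 higher and 1892 lower calls, in place of 2533 and 2561. The median of mitochondrial genes for 30 against 1 µg/cm2 was 0.0014, and -0.014 with RLE and -0.053 with upper-quartile factors. With 3 libraries a group and low counts of NDUFA7 and NDUFV2, small changes in these genes were not detectable.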
